A study of Mus musculus with 24 samples.

Results

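The genes described here are the 3 Gadd45 genes (Gadd45a, Gadd45b and Gadd45g), Ier5, Txnip and the arrestin-domain genes Arrdc1, Arrdc2, Arrdc3 and Arrdc4, 9 of the 19938 genes measured. Each was represented by 1 probe set. Gadd45g, Ier5 and Txnip were picked because they were among the first genes to fall after spermidine, at 120 and 240 min against 0 min. The other 6 were picked as their relatives by family.

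The cells were NIH3T3, an immortalised line of mouse embryonic fibroblasts. All 8 groups had been held for 96 h in 1 mM DFMO (difluoromethylornithine), which inactivates ornithine decarboxylase and so stops polyamine synthesis at its start. The 0 min group was harvested unstimulated. The other 7 groups received 10 µM spermidine, a polyamine, together with 1 mM aminoguanidine to keep the spermidine from being oxidised, and were harvested at 30, 60, 120, 240, 360, 480 or 600 min. With 3 biological replicates per group there were 24 arrays (Affymetrix MoGene 1.0 ST), each from 200 ng of total RNA. Dishes kept in DFMO alone for the later times are not among the labelled groups, so time after the addition and spermidine itself cannot be told apart. The labels do not state whether 0 min cells had aminoguanidine. The fibroblast label was checked on its markers: 7 fibroblast genes had mean log2 levels of 6.04 to 12.72, and 17 markers of macrophages, epithelium, fat, muscle and endothelium had means of 3.62 to 4.60. In bulk RNA, fewer cells of a kind and less RNA per cell cannot be told apart.

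Gadd45 proteins are small stress-induced proteins without enzymatic activity that act by binding: they activate the kinase Map3k4 at the head of the p38 and JNK cascades, and bind Cdk1, Pcna and Cdkn1a. Ier5 is an immediate early gene whose product assists the heat shock factor Hsf1. Txnip binds and inhibits thioredoxin, and like Arrdc1 to Arrdc4 it is an alpha-arrestin, an adaptor that marks membrane proteins for uptake and sorting. Txnip and Arrdc4 lower glucose uptake and are induced by glucose through the Mondo factors and their partner Mlx.

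The stretch of 250 bases before the transcription start is printed for the 4 genes of the set that fell most, and for Arrdc4 as the relative of Txnip that is also known to respond to glucose. Sequences are from RefSeq on build GRCm38.p6, on the strand of the gene. They cover chr3:96557707-96557956 (+) for Txnip, chr13:51846425-51846674 (+) for Gadd45g, chr1:155099637-155099886 (−) for Ier5, chr6:67037408-67037657 (−) for Gadd45a and chr7:68749239-68749488 (−) for Arrdc4. Capitals mark matches to the motifs described after the sequences, on either strand.
Txnip: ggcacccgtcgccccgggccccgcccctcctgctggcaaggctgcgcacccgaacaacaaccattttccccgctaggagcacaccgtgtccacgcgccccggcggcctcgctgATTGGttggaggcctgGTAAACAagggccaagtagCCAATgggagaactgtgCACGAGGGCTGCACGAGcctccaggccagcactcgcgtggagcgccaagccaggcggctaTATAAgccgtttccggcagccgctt
Gadd45g: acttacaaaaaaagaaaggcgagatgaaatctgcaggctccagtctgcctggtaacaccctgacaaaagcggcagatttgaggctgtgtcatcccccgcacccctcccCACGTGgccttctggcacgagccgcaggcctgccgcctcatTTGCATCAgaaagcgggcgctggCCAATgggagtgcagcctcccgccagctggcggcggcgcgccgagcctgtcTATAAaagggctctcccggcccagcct
Ier5: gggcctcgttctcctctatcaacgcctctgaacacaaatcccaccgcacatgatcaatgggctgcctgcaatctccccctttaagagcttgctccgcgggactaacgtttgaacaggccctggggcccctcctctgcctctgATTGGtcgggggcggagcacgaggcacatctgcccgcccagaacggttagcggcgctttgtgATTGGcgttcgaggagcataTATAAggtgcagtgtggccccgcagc
Gadd45a: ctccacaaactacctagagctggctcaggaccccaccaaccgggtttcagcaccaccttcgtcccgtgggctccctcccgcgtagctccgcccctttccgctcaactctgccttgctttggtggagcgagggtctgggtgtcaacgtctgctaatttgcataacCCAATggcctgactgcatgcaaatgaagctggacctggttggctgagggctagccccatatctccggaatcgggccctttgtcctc
Arrdc4: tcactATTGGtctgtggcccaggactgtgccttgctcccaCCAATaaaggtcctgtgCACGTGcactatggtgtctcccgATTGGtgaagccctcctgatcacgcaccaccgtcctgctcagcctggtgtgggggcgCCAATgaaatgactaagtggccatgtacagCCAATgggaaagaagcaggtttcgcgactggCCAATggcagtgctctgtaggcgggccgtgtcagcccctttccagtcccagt

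All 9 genes had an entry, with 11 start sites among them, and both strands were searched for 7 motifs. A gene was counted if any of its start sites matched, while the shares of all promoters count each start site, so these measures are unlike. The CCAAT box (CCAAT, read ATTGG on the other strand) was in 8 of 9 genes, all but Arrdc1, against 33.8% of 32851 mouse promoters of the same length. TATAA was in Gadd45b, Gadd45g, Ier5 and Txnip (22.8% of all promoters). A carbohydrate response element, the paired half-site that Mondo factors bind (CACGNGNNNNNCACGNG), was found in Txnip and in none of the other 8, starting 85 bases before the start site as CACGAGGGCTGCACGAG. It was in 15 of the 32851 promoters (0.0457%). The E-box CACGTG was in Gadd45b, Gadd45g and Arrdc4 (6.02% of promoters). Txnip also held the forkhead motif GTAAACA (3.17%), and Gadd45g held TTGCATCA, a match on the other strand to the ATF4 motif TGATGNAA (3.45%). The heat shock pair GAANNTTC (6.69%) was in none of the 9 windows. The matches do not overlap within the printed stretches, and each is a match of letters that shows no binding.

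A pair of arrays lay away from their labelled times. On the first principal component (63.1% of the variance over all genes), the 120 min arrays scored −12.2, −12.2 and, for replicate 3, 2.61. Those at 240 min scored 2.07, 1.49 and, for replicate 3, −13.2. Each thus lay near the arrays of the time on the other label, and whether the labels of these 2 arrays were exchanged was not tested. These displaced arrays were kept as labelled, so every mean at 120 and 240 min rests on those labels, and values without them follow where they change a result. Array medians of the deposited log2 values lay between 4.40 and 4.45, and differences between 2 times had a median standard error of 0.0567. The 7 comparisons with 0 min share the same 3 control arrays.

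Gadd45a, a p53 target that responds to DNA damage, had its highest means at 30 and 60 min and then dropped. Its log2 values (probe set 10545130) were 7.57, 7.48 and 6.87 at 0 min. They were 7.53 to 7.91 on the 6 arrays at 30 and 60 min, with a median of 7.73. At 120 min they were 6.66, 6.56 and 6.45, at 240 min 6.53, 6.23 and 6.66, and from 360 to 600 min they ranged from 5.65 to 6.49 with a median of 6.11 on 9 arrays. Every array from 120 min on was below every array from 0 to 60 min. Against 0 min the level was 0.43 ± 0.18 (SE) higher at 30 min, which did not pass the test (limma adjusted p = 0.846), and 0.40 ± 0.18 higher at 60 min (adjusted p = 0.973). Without replicate 3 at 0 min these differences were 0.21 and 0.18.

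Between 60 and 120 min Gadd45a fell by 1.15 ± 0.18, or 2.22-fold (limma adjusted p = 0.00389), and 9 genes of the 19938 fell further in that hour. It was the 1 called gene of the 6 relatives in an interval in which 0.411% of all genes were called. The fall was 1.10 without both displaced arrays (adjusted p = 0.0221) and had an adjusted p of 0.0657 when these were left out and replicate number was also fitted as a block. Against 0 min the difference at 120 min was −0.75 ± 0.18 and did not pass (adjusted p = 0.0687). It passed at 240 min (−0.83 ± 0.18, adjusted p = 0.0158) and at 360, 480 and 600 min (−1.14, −1.28 and −1.12, adjusted p = 0.000162, 2.49e-05 and 8.25e-05). The 0 min group itself was wide, with replicate 3 at 6.87. Without that array the 120 min difference passed (adjusted p = 0.0215), while the 240 min call was lost without replicate 1 or 2 of either time (adjusted p up to 0.104).

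Gadd45g, a Gadd45 gene linked to growth arrest and differentiation, was also lower from 120 min on. Its values (probe set 10405211) were 6.85, 6.77 and 6.97 on the 0 min arrays, and 6.79, 6.93 and 6.78 on those at 30 min. The arrays at 60 min split, with 6.12, 6.93 and 6.31. The later values were 5.98, 5.85 and 5.86 at 120 min, 6.09, 5.61 and 6.40 at 240 min, and 5.48 to 6.00 with a median of 5.81 on the 9 later arrays. The 60 min arrays overlapped both those at 30 min and those at 240 min. The highest 240 min value came from the displaced array. The differences from 0 min, by which the gene was chosen, were −0.97 at 120 min and −0.83 at 240 min (−1.01 without that array).

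Gadd45b, the member induced by NF-kB and TGF-beta signals, showed no such drop. Its values (probe set 10364950) were 6.12, 6.37 and 6.51 at 0 min, 6.15 to 6.36 on the 6 arrays at 30 and 60 min, and 5.74 to 6.61 on the 9 arrays from 360 min on. The late arrays thus spanned the early ones on both sides. Time means ran from 6.07 ± 0.33 at 600 min to 6.44 ± 0.15 at 360 min (SD, n = 3). No difference from 0 min passed the test, the furthest being −0.26 at 600 min (95% confidence interval −0.55 to 0.03, limma adjusted p = 0.191).

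Ier5 ran a similar course to Gadd45a. Its values (probe set 10358978) were 8.16, 8.09 and 7.97 at 0 min, and 8.10 to 8.47 on the 6 arrays at 30 and 60 min, with a median of 8.28. All 3 arrays at 30 min lay above all 3 at 0 min. At 120 min they were 7.23, 7.31 and 7.14, at 240 min 7.06, 6.67 and 7.56, and on the 9 later arrays 6.63 to 7.07 with a median of 6.93. No array from 120 min on reached the lowest array of the first hour. The 240 min value of 7.56 came from the displaced array, and the difference from 0 min there was −0.97 with it and −1.20 without it. At 120 min the difference was −0.85, and at 600 min −1.26.

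Txnip was already low at 60 min. Its values (probe set 10494428) were 10.34, 10.05 and 10.27 on the 0 min arrays, 10.03, 10.30 and 10.14 on those at 30 min, and 9.78, 9.73 and 9.39 on those at 60 min. The latter 3 arrays were all below the 6 earlier ones. The step from 30 to 60 min was −0.52 ± 0.15 and did not pass the test over all genes (limma adjusted p = 0.487, or 0.0734 without both displaced arrays). In that interval 15 genes had a larger drop. Of the 9 genes limma called 0 there, against 0.0451% of all genes. At an unadjusted p under 0.05 there were 2, for which the share of all genes was not computed. Limma-trend called 0 of the 9 and 13 of all genes.

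At 120 min Txnip stood at 9.37, 9.58 and 8.94, at 240 min at 9.10, 8.85 and 9.50, and on the 9 later arrays between 8.97 and 9.19 with a median of 9.14. The displaced arrays gave the lowest value at 120 min and the highest at 240 min. Against 0 min, the comparison that chose it, the mean difference was −0.92 at 120 min (−0.74 without the displaced array) and −1.07 at 240 min (−1.25). From 360 to 600 min the time means lay within 9.06 to 9.18. At 120 min the chosen genes Gadd45g, Txnip and Ier5 stood at −0.97, −0.92 and −0.85, with 4, 7 and 10 of all genes further down. The next of the 9 were Gadd45a (−0.75, with 16 genes further down) and Arrdc3 (−0.28).

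**Figure D1:**
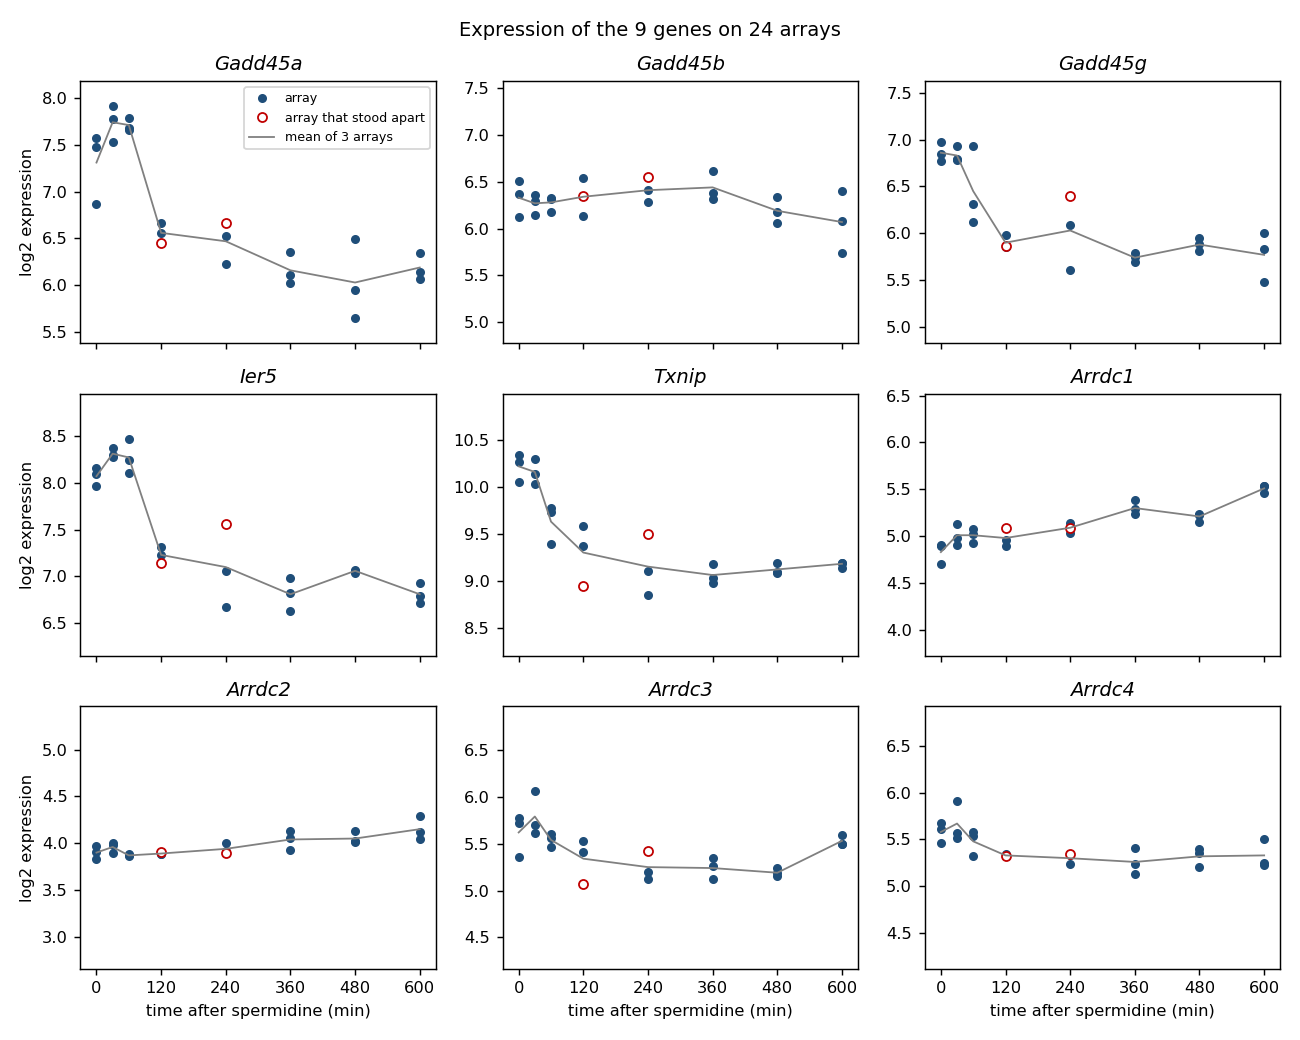
Log2 expression of each of the 9 genes (vertical axis, every panel spanning the same number of log2 units) against minutes after spermidine on 24 arrays. Filled points are arrays, open red points the replicate 3 arrays at 120 and 240 min that lay away from their labelled times, and lines join the means of 3 arrays: Gadd45a, Gadd45g, Ier5 and Txnip are lower from 120 min on, Gadd45b has no such drop, and Arrdc1 is highest at 600 min.

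Of the arrestin-domain relatives, Arrdc1, which recruits Tsg101 and takes part in the budding of vesicles from the plasma membrane, went the other way. Its values (probe set 10480570) were 4.89, 4.91 and 4.70 at 0 min, 4.91 to 5.13 on the 6 arrays at 30 and 60 min (median 5.00), and 5.15 to 5.54 on the 9 arrays from 360 min on (median 5.29). At 600 min they were 5.54, 5.46 and 5.53, above every other array. Arrdc1 rose by 0.47 ± 0.07 at 360 min, 0.37 ± 0.07 at 480 min and 0.68 ± 0.07 at 600 min against 0 min (limma adjusted p = 4.52e-05, 0.000214 and 1.74e-07). A difference of 0.25 at 240 min passed by a small margin (adjusted p = 0.0389), but not with the replicate block (adjusted p = 0.0764). It also missed the threshold in 5 of the 6 fits that left out 1 array of those times, all but the one without replicate 2 at 0 min (adjusted p up to 0.176). The last step, from 480 to 600 min, was 0.30 (adjusted p = 0.0626, 0.155 with the replicate block, 0.0382 without both displaced arrays and 0.0872 without them with the block).

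Arrdc2, a glucocorticoid-responsive alpha-arrestin, gave a dim signal, with array values (probe set 10579406) of 3.83 to 4.29. These lie within the range of the 17 markers of other cell types (means of 3.62 to 4.60), so the probe set was not shown to be above background. The 0 min arrays read 3.83, 3.97 and 3.91, and the 600 min arrays 4.29, 4.12 and 4.04. These groups did not overlap, and the probe set value rose by 0.25 ± 0.06 (limma adjusted p = 0.00276), from which the size of a change in Arrdc2 RNA cannot be read.

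Arrdc3, an adaptor for the beta-2 adrenergic receptor, was lower at 360 and 480 min and back near its 0 min level at 600 min. Its values (probe set 10406407) were 5.77, 5.72 and 5.36 on the 0 min arrays, 5.15, 5.24 and 5.19 on those at 480 min, and 5.50, 5.50 and 5.59 on those at 600 min. It fell by 0.37 ± 0.12 at 360 min (limma adjusted p = 0.0394) and by 0.42 ± 0.12 at 480 min (adjusted p = 0.0145). At 600 min the difference was −0.08 (adjusted p = 0.705). All 3 arrays at 600 min lay above all 3 at 480 min, a step of 0.34 that did not pass over all genes (adjusted p = 0.412). The 360 min call was lost with the replicate block (adjusted p = 0.0612) and without replicate 1 or 2 of either time (adjusted p up to 0.178), and the 480 min call without replicate 1 or 2 at 0 min (adjusted p up to 0.0832). Without the displaced arrays, the 240 min difference went from −0.37 (adjusted p = 0.12) to −0.45 (adjusted p = 0.0178).

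Arrdc4 (probe set 10564507) read 5.61, 5.46 and 5.68 on the 0 min arrays and 5.24, 5.13 and 5.41 on the 360 min arrays. These groups did not overlap. Arrdc4 fell by 0.32 ± 0.10 at 360 min (limma adjusted p = 0.0239), but this did not pass without replicate 1 or 3 at 0 min or replicate 1 or 2 at 360 min (adjusted p up to 0.124). At 480 and 600 min the differences were each −0.26 (adjusted p = 0.0616 and 0.0579).

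Counted over the 6 relatives, limma called 0 at 30, 60 and 120 min against 0 min, where 0.0150%, 0.0251% and 0.471% of all genes were called. At an unadjusted p under 0.05 the counts were 2, 2 and 4, for which the share of all genes was not computed, so they are not read further. Limma-trend called 0, 0 and 1 of the relatives, and 10, 7 and 113 of all genes. Calls came later: 2 of 6 at 240 min (Arrdc1 higher, Gadd45a lower), 4 of 6 at 360 min (Arrdc1 higher, Gadd45a, Arrdc3 and Arrdc4 lower), and 3 of 6 at both 480 min (Arrdc1 higher, Gadd45a and Arrdc3 lower) and 600 min (Arrdc1 and Arrdc2 higher, Gadd45a lower). The shares of all genes called at these times were 3.06%, 19.0%, 24.2% and 26.9%. The count at 240 min was 1 with the replicate block. Between neighbouring times, limma called 0 of the 6 from 120 to 240 min (0% of all genes) and 0 from 240 to 360 min (6.05%). At an unadjusted p under 0.05 there were 0 and 1, again without a share of all genes. Limma-trend called 0 of the 6 in both, and 1 and 1174 of all genes.

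A comparison of the late arrays (360, 480 and 600 min) with those at 30 and 60 min uses none of the arrays by which Gadd45g, Ier5 and Txnip were chosen, and was tested for all 9 genes. In it 8 of 9 passed, 2 higher and 6 lower, where 34.5% of all genes were called (15.4% higher and 19.1% lower). The early and late arrays did not overlap for 5 of the 9, namely Gadd45a, Gadd45g, Ier5, Txnip and Arrdc1, against 17.0% of all genes. Both counts include the chosen genes Gadd45g, Ier5 and Txnip, so the shares of all genes are not a like background for them. The median of the 9 differences was −0.34, and that of all genes 0.008. The count was 8 as well with the replicate block, without both displaced arrays, and with any array of those times left out.

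Gadd45a fell by 1.60 ± 0.12 in this comparison, or 3.03-fold (limma adjusted p = 1.58e-09), and 14 genes fell further. Ier5 fell by 1.40 ± 0.09, or 2.64-fold (adjusted p = 3.93e-10), with 26 genes further down. Gadd45g fell by 0.84 ± 0.11 (adjusted p = 3.79e-06) and Txnip by 0.78 ± 0.10 (adjusted p = 1.43e-06), 1.80-fold and 1.71-fold. Since Txnip was already lower at 60 min, its early mean includes part of its drop. The 60 min mean of Gadd45g was also lower, while the 30 and 60 min means of Gadd45a and Ier5 lay above their 0 min means. From 0 min to the late mean the differences were closer: −1.18 for Gadd45a and Ier5, −1.1 for Txnip and −1.06 for Gadd45g. These include arrays used for the choice and are a description. Arrdc3 fell by 0.34 ± 0.08 (adjusted p = 0.0015) and Arrdc4 by 0.27 ± 0.06 (adjusted p = 0.00183). Arrdc1 rose by 0.33 ± 0.04 (adjusted p = 2.03e-06) and the dim probe set value of Arrdc2 by 0.16 ± 0.04 (adjusted p = 0.0014). Gadd45b was at −0.04 ± 0.09 (95% confidence interval −0.22 to 0.15, adjusted p = 0.807).

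**Figure D2:**
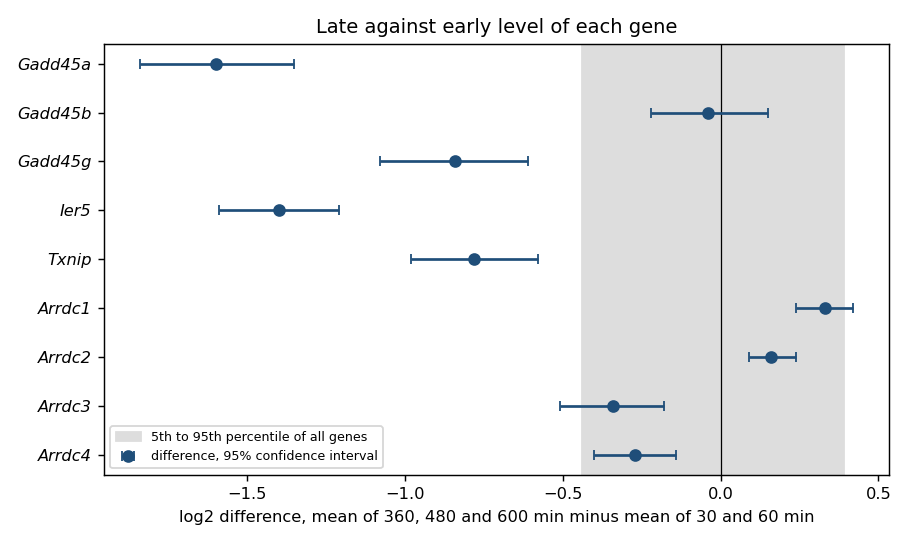
Log2 difference between the mean of 360, 480 and 600 min (9 arrays) and the mean of 30 and 60 min (6 arrays), with 95% confidence intervals from the limma fit, for each of the 9 genes. The grey band runs from the 5th to the 95th percentile of all genes (−0.44 to 0.39): Gadd45a, Ier5, Gadd45g and Txnip lie below it, and the interval of Gadd45b spans 0.

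Whether relatives moved by unequal amounts was tested on differences between gene pairs within each array. Of 13 pairs, 12 changed between early and late arrays (exact two-sided permutation test over 5005 arrangements of 6 and 9 arrays, adjusted over 13 pairs). Pairs with Gadd45g or Txnip hold a gene chosen for its fall, so they are not independent of that choice. All 3 Gadd45 pairs passed at the smallest p the design allows (exact p = 0.0002, adjusted p = 0.00026). Gadd45a minus Gadd45b moved by −1.56, Gadd45a minus Gadd45g by −0.75, and Gadd45b minus Gadd45g by 0.81. Txnip moved further down than each of Arrdc1, Arrdc2 and Arrdc4 (differences of −1.11, −0.94 and −0.51, each at exact p = 0.0002), and than Arrdc3 (−0.43, exact p = 0.000599, adjusted p = 0.000708). The value of Arrdc1 moved up by 0.17 more than that of Arrdc2 (exact p = 0.011, adjusted p = 0.0119). Since Arrdc2 read at the level of markers of other cell types, its 4 pairs compare probe set values, and they do not show by how much its RNA moved against that of a relative. Both values moved up more than those of Arrdc3 and Arrdc4, by 0.43 to 0.68 (exact p = 0.0002 for all 4 pairs). The pair that did not pass was Arrdc3 and Arrdc4, whose changes differed by −0.07 (exact p = 0.492), with within-array differences from −0.21 to 0.50 early and from −0.21 to 0.35 late.

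**Figure D3:**
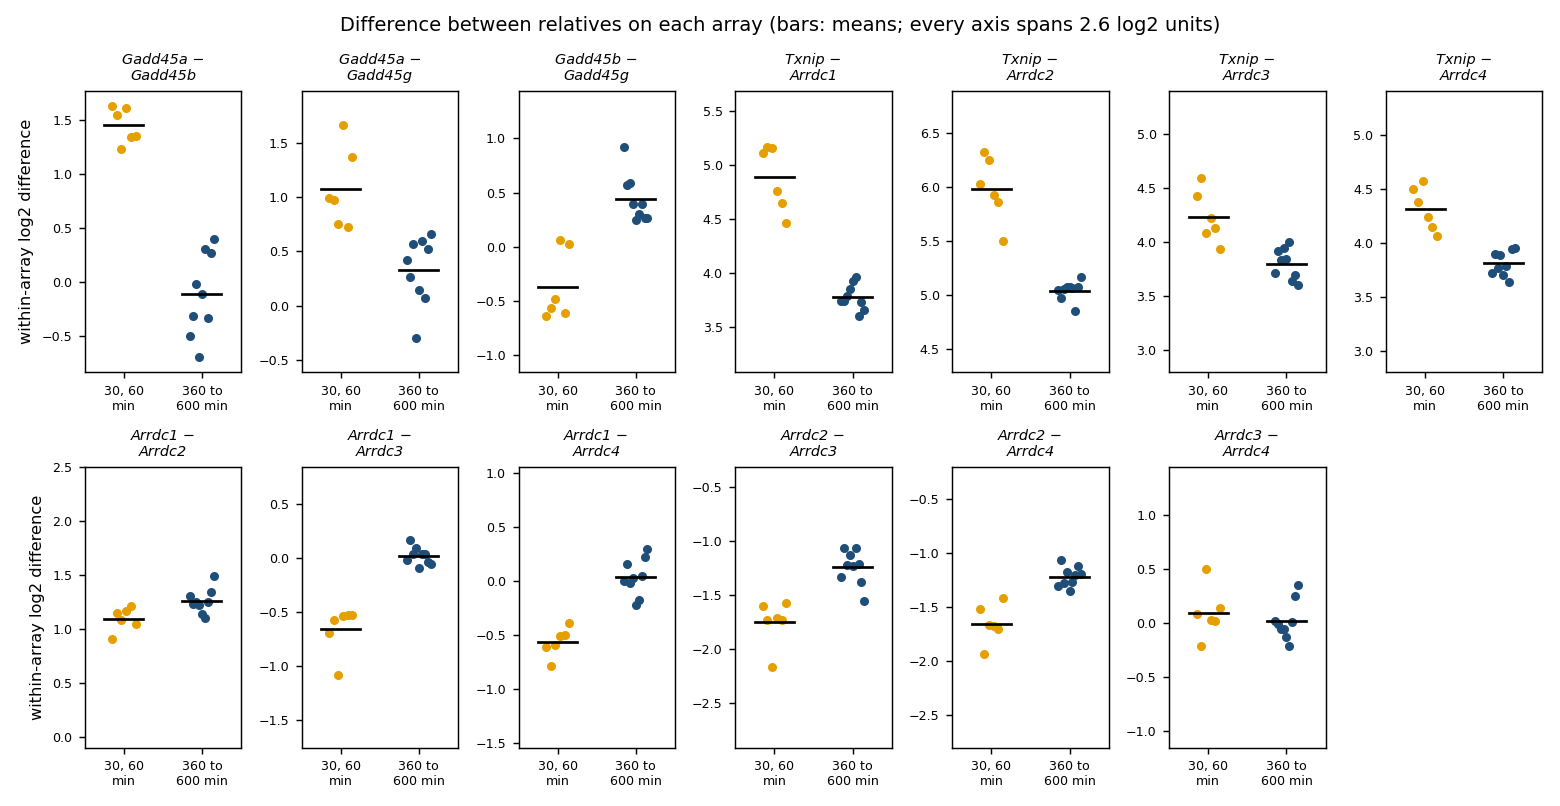
Log2 value of the first gene minus that of the second on the same array, for the 13 pairs, at 30 and 60 min (6 arrays, orange) and from 360 to 600 min (9 arrays, blue), with means as bars. The shift from orange to blue is what is compared, since the height on the vertical axis depends on the probe sets; 12 of 13 pairs shifted, and Arrdc3 minus Arrdc4 did not pass the test.

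How far the 4 genes that fell most had gone at each time is given as a description that includes the arrays used for the choice, and no order between them is shown by a test. Taking the fall from 0 min to the late mean as 100%, Txnip had gone 53.1% of the way at 60 min and Gadd45g 38.4%. Ier5 and Gadd45a were at −16.8% and −34.2%, that is, above their 0 min mean. With 1 array of 0 or 60 min left out, the share of Txnip was 42% to 59.7% and that of Ier5 −23.8% to −8.38%. That of Gadd45g was 22.8% without replicate 1 at 60 min and 60.9% without replicate 2, and that of Gadd45a was −13% without replicate 3 at 0 min and −50.9% without replicate 1. By 120 min all 4 had covered most of the distance: 90.7% for Gadd45g, 83.5% for Txnip, 71.7% for Ier5 and 63.5% for Gadd45a. Without the displaced array those shares were 88.8%, 67.4%, 68% and 58.9%, and Txnip was then level with Ier5.

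The gap between Txnip and Ier5 on the same array was 1.73 to 1.92 at 30 min and 1.15 to 1.68 at 60 min, without overlap. The change was −0.48 (exact two-sided permutation p = 0.1, the smallest that 3 against 3 arrays can give), and that of Txnip against Gadd45a was −0.49 (exact p = 0.1). For Gadd45g against Gadd45a it was −0.35 (exact p = 0.4). With 3 against 3 arrays none of these pairs could pass at 0.05. They were also added to the planned pairs, so they show no order between the genes. After 360 min, 0 of the 9 genes passed from 360 to 480 min (0.612% of all genes) or from 480 to 600 min (0.181%) in limma. At an unadjusted p under 0.05 there were 0 and 2, for which the share of all genes was not computed. Limma-trend called 0 of the 9 in both, and 90 and 38 of all genes.

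**Figure D4:**
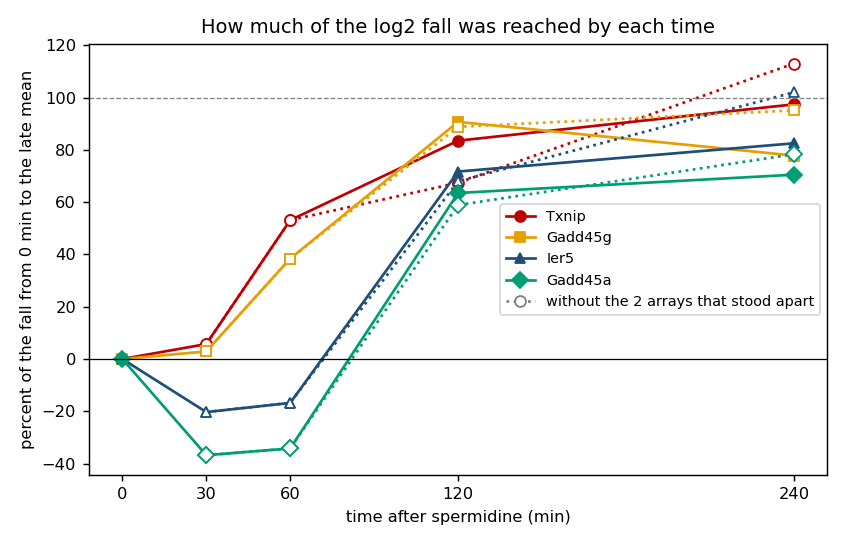
Share of the log2 fall from 0 min to the mean of 360, 480 and 600 min (vertical axis, percent) that Txnip, Gadd45g, Ier5 and Gadd45a had covered at 30, 60, 120 and 240 min (solid lines and filled marks), and the same without the replicate 3 arrays at 120 and 240 min (dotted lines and open marks). At 60 min Txnip is at 53.1% and Gadd45g at 38.4%, while Ier5 and Gadd45a lie below 0; at 120 min the 4 lie between 63.5% and 90.7% with all arrays. The 60 min mark of Gadd45g ranges from 22.8% to 60.9% with 1 array left out.

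In the order of time means, Gadd45a and Ier5 both ran 30, 60, 0, 120 and 240 min from high to low before the 3 late times, while Gadd45g and Txnip began with 0, 30 and 60 min. Neighbours in that order mostly overlapped. The times were ordered by the same means, and the share of all genes with such gaps was not computed, so the gaps are only described. Those that did not were 60 over 0 min and 0 over 120 min for Gadd45a, 0 over 120 min and 480 over 600 min for Ier5, 30 over 60 min for Txnip, and 600 over 360 min and 480 over 240 min for Arrdc1. For the other 5 genes every neighbouring pair overlapped.

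The genes whose 8 time means ran most like those of a member were looked up among 2538 named genes with a span of at least 0.5, as a description over 8 time points on the same 24 arrays. For Gadd45a these were Klf6, a zinc finger transcription factor (Pearson r = 0.998), Tsc22d2 (0.998) and the polo-like kinase gene Plk2 (0.994). For Ier5 they were Amotl2 (0.995), the Hippo pathway kinase gene Lats2 (0.994) and again Plk2 (0.991). Gadd45g had Bet1l (0.991), Lpar6 (0.978) and Txnip (0.975). Both Gadd45g and Txnip were chosen for early falls on these arrays, so their likeness is not independent of the choice. Txnip had Bet1l (0.98), Ephb3 (0.975) and the glucocorticoid-induced gene Tsc22d3 (0.975). Arrdc1 was nearest to Herc6 (0.97), Egln3 (0.962) and Mkln1 (0.957), and Arrdc3 to Ttc26 (0.974), Pcgf1 (0.97) and H2aw (0.955).

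Genes that work with the 9 were followed in the same late against early comparison, through 8 lists with 88 different genes, of which 80 were measured. The background is again 15.4% of genes higher, 19.1% lower and a median of 0.008. Of 15 genes of the stress MAP kinase cascade, 4 rose and 2 fell (median 0.01). Map3k4, the kinase that Gadd45 proteins bind, rose by 0.45 ± 0.06 (limma adjusted p = 2.04e-06), Map2k6, which activates p38, by 1.09 ± 0.09 (adjusted p = 8.19e-09) and Mapk14, p38 alpha itself, by 0.29 ± 0.05 (adjusted p = 4.04e-05). The 2 that fell were Map2k3, by 0.40 ± 0.08 (adjusted p = 0.000454), and Map3k7, by 0.16 ± 0.04 (adjusted p = 0.0036). The JNK gene Mapk8 was at −0.08 (adjusted p = 0.161). Transcripts of Map3k4 were thus higher at the times when those of Gadd45a and Gadd45g were lower, while the list had calls in both directions.

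Of 4 measured Gadd45 binding partners, 2 rose and 1 fell (median 0.43). Pcna, the replication clamp, rose by 1.37 ± 0.09 (limma adjusted p = 3.07e-10) and Cdk1, the mitotic kinase, by 0.70 ± 0.07 (adjusted p = 4.01e-08). Ercc5, a nuclease of nucleotide excision repair, fell by 0.89 ± 0.06 (adjusted p = 1.11e-09). Ccnb1, Cdkn1a and Tdg, from the same list, were not analysed here.

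Among 8 genes of the Ier family and of the phosphatase PP2A, through which Ier5 acts on Hsf1, 2 rose and 2 fell (median −0.03). Ier2, another immediate early gene, fell by 1.50 ± 0.18 (limma adjusted p = 1.16e-06), with means of 5.22 at 0 min, 6.33 at 30 and 60 min and 4.83 late. Most of that fall was from the early peak. Ier5l, the nearest relative of Ier5, rose by 0.26 ± 0.03 (adjusted p = 5.89e-07), and the scaffold subunit Ppp2r1a fell by 0.16 ± 0.04 (adjusted p = 0.00087). Ier3 was at −0.04 (adjusted p = 0.871).

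For Txnip, the thioredoxin system (10 genes) had 5 higher and 3 lower (4 and 3 with the replicate block, median 0.09). Srxn1, which repairs peroxiredoxins, rose by 0.55 ± 0.06 (limma adjusted p = 7.06e-07) and the reductase gene Txnrd3 by 0.44 ± 0.06 (adjusted p = 2.87e-06). Prdx3 and Txn2, of the mitochondrial branch, fell by 0.22 ± 0.03 (adjusted p = 2.62e-06) and 0.14 ± 0.03 (adjusted p = 0.000384). Of 12 genes of glucose sensing and uptake, 3 rose and 2 fell (median 0.01). The glucose transporter gene Slc2a1 rose by 0.58 ± 0.07 (adjusted p = 4.98e-07), Mlx by 0.39 ± 0.07 (adjusted p = 0.000141) and the AMPK subunit Prkaa1 by 0.41 ± 0.04 (adjusted p = 2.05e-07). The hexokinase gene Hk2 fell by 0.56 ± 0.08 (adjusted p = 1.29e-05).

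Of 16 other arrestin-fold genes and Nedd4-type ubiquitin ligases with their adaptors, 6 rose and 2 fell (median 0.03). The beta-arrestin genes Arrb1 and Arrb2 rose by 0.74 ± 0.07 (limma adjusted p = 4.08e-08) and 0.49 ± 0.07 (adjusted p = 1.31e-05), and the ligase gene Wwp2 by 0.72 ± 0.04 (adjusted p = 1.15e-10). The 2 that fell were the ligase gene Smurf2, by 0.38 ± 0.06 (adjusted p = 2.14e-05), and Ndfip2, which recruits such ligases, by 0.15 ± 0.03 (adjusted p = 0.000262). Both beta-arrestin genes thus shared the direction of Arrdc1 and of the dim Arrdc2 probe set, not that of Txnip, Arrdc3 and Arrdc4.

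Of 10 measured transcription factors known to act on members of the set, 2 rose and 3 fell (median −0.08). Atf4, the factor of the amino acid response, had means of 10.38 at 0 min, 10.35 at 30 and 60 min and 9.03 late, and fell by 1.32 ± 0.11 (limma adjusted p = 7.12e-09). Egr1, an immediate early factor, fell by 2.50 ± 0.21 (adjusted p = 6.32e-09) from an early peak, with means of 4.43 at 0 min, 6.62 at 30 and 60 min and 4.11 late. Foxo4 rose by 0.29 ± 0.05 (adjusted p = 5.87e-05). Foxo1 and Foxo3, factors known to act on Gadd45a and Txnip, were at −0.12 (adjusted p = 0.166) and −0.06 (adjusted p = 0.567) and were added with their values in view. The p53 gene was not analysed here.

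Among 8 genes of the glucocorticoid response, which is known to include Txnip and Arrdc2, 1 rose and 3 fell (median 0.00). Tsc22d3 fell by 0.60 ± 0.06 (limma adjusted p = 2.19e-07) and Klf9 by 0.23 ± 0.05 (adjusted p = 0.000745). Fkbp5 rose by 0.29 ± 0.08 (adjusted p = 0.00384), and Ddit4 was at 0.25 ± 0.11 (adjusted p = 0.0972). The list was split in direction, as were Txnip and the Arrdc2 probe set, whose signal was not shown to be above background.

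**Figure D5:**
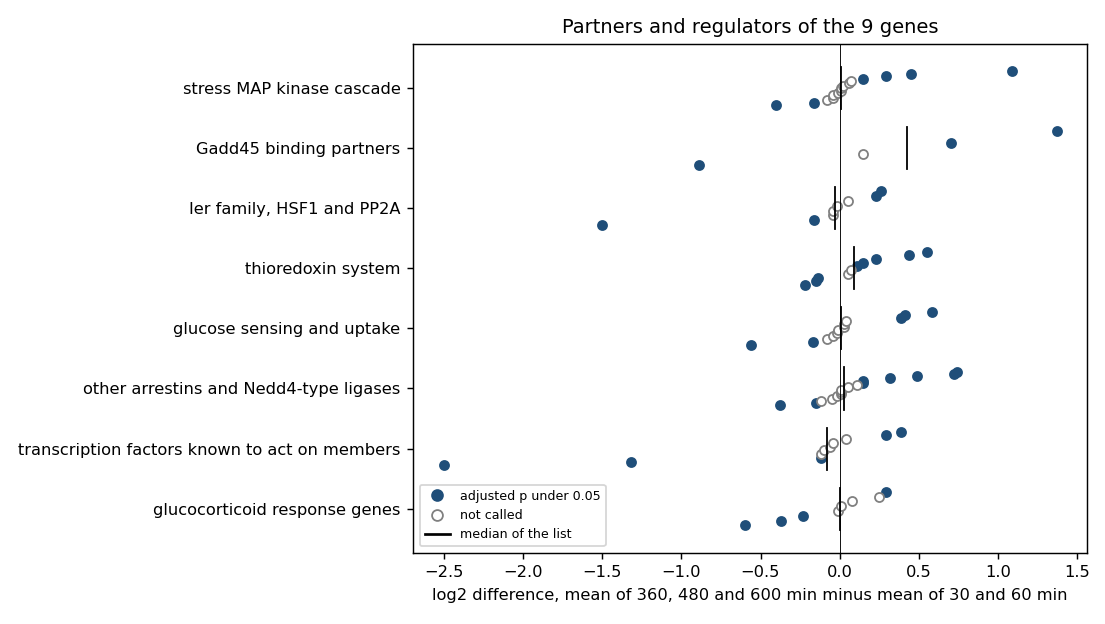
Log2 difference between the mean of 360, 480 and 600 min and the mean of 30 and 60 min (horizontal axis) for each measured gene of the 8 lists, with none of the 9 genes among them. Filled points passed at an adjusted p under 0.05, open points did not, and short black lines are list medians, which lie between −0.08 and 0.09 for all lists but the 4 Gadd45 binding partners (0.43).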

How the data were processed

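RNA was measured on 24 arrays, and the values are log2 expression per probe set that the authors deposited after robust multi-array averaging (RMA) in Partek, per the submitters' processing notes. Software versions are not given in the sources used here, and the log2 scale was inferred from the values (2.94 to 13.63). They were used without further normalization. Replicate numbers had equal means for each gene (largest gap 8.75e-05), so an effect of replicate number had been removed before deposit by a step the sources do not describe, and p-values that ignore it are somewhat too small.

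Of 35399 probe sets, 21789 had 1 gene symbol in the platform annotation, 1621 several and 11989 none. The probe set with the highest mean was taken for 999 genes with several, which left 19938 genes. With limma 3.58.1 in R 4.3.3, 1 mean per time was fitted to all arrays (16 residual and 3.48 prior degrees of freedom), with moderated two-sided tests, Benjamini-Hochberg adjustment over all genes within each comparison and calls at an adjusted p under 0.05. Errors on differences are standard errors of this fit, and p-values measure the spread between these biological replicates. The fit was tested on simulated data. Differences that chose Gadd45g, Ier5 and Txnip are given without a test.

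Members, lists and motifs were chosen with earlier results of these data known. Named were all 9 members, up to 4 genes per list with the smallest F-test p among those at an adjusted p under 0.05, and the 3 genes most like each member whose time means span at least 0.5. Outside this rule, Map2k3, Map3k7, Smurf2, Foxo1 and Foxo3 were added with their values in view. Alternatives covered the replicate block, quantile normalization, a filter on dim genes, limma-trend, fits on the compared arrays only and leaving out arrays.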

Additional observations from a re-analysis of the deposited data

How the results depend on the processing

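Whether replicate numbers pair the arrays could not be checked. Deviations from the time means correlated at a median of −0.15 for the same number at another time (84 pairs) and 0.08 for other numbers (168 pairs), but the equal replicate means in the deposited values force the first below 0 on average. The count of 8 members called late against early was 7 with dim genes left out, which drops Arrdc2, and 8 under each other alternative run, the replicate block and each array left out included. The count of 12 of 13 gene pairs was 12 under each alternative run for it. Against 0 min, the count of called relatives at 120 min (0) was 1 with dim genes left out and with limma-trend, and 0 to 1 with 1 array left out (1 without 0 min replicate 3). The count at 240 min (2) was 1 with the replicate block and with limma-trend, 0 in a fit of those arrays only, and 0 to 2 with 1 array left out (0 without 0 min replicate 1 or 240 min replicate 1 or 2, 1 without 0 min replicate 2). With 1 array left out the count at 360 min (4) was 2 to 4 (2 without 0 min replicate 1 or 360 min replicate 2), at 480 min (3) 2 to 3, and at 600 min (3) 3 to 5 (5 without 600 min replicate 1). The same fits called 3026 to 3210 of all genes at 360 min. At 480 and 600 min they called 4033 to 4314 and 4556 to 5153. The Gadd45a call from 60 to 120 min became 0 without both displaced arrays with the replicate block, where 35 of all genes were called. From 240 to 360 min (0) the count was 1 with quantile normalization and with dim genes left out, and from 480 to 600 min (0) it was 1 with quantile normalization and without both displaced arrays. Over all genes, quantile normalization called 1299 and 44 in these 2 intervals. The filter on dim genes called 1595 in the first. The cause of the changes in member counts was not tested. The difference between Arrdc3 and Arrdc4, −0.07, ranged from −0.14 to 0.01 with 1 array left out and changed sign without 30 min replicate 3 (adjusted p = 0.955).

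Over all genes, 94 were called at 120 min and 610 at 240 min against 0 min. These became 40 and 356 with the replicate block, 47 and 1663 without both displaced arrays, and 6 and 32 on those arrays alone. With 1 array left out they ranged from 13 to 234 and from 200 to 1298. From 60 to 120 min the count of 82 became 37 with the block, 50 without both displaced arrays and 5 on those arrays alone. With both displaced arrays left out, counts of 0, 122 and 36 from 120 to 240, 360 to 480 and 480 to 600 min became 524, 237 and 91, and 1207 from 240 to 360 min became 603. With the replicate block there were 776 from 240 to 360 min, 65 from 360 to 480 min and 21 from 480 to 600 min. At 30 and 60 min against 0 min the counts were 3 and 5, or 0 and 2 with the block, and from 30 to 60 min 9, or 1 with it. With dim genes left out the counts at 120 min against 0 and 60 min were 163 and 127. Arrays of 3 per time limit the precision, and Arrdc2 was below the filter on dim genes (median gene mean 4.35), so it has no value under it.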
